A study of Mus musculus with 6 samples.

Results

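Tac2, Rgcc, Myh7b, Selenbp1, Fam71f2, Aire, Galr2, Cbln3 and Ankrd37 are 9 protein-coding mouse genes whose transcripts stood 10.4-fold to 63.4-fold higher in fibroblasts kept in low oxygen than in air. They were chosen by their measured values, a hypoxia FPKM far above the normoxia FPKM in the authors' deposited table, and each symbol matched 1 row. They are 9 of 14575 tested measurements and of 51482 measurements in all. The choice used no numerical limit: 49 protein-coding measurements with a single gene name rose at least as much as Cbln3, the member with the smallest ratio, and 35 of these, the 9 included, reached at least the 2.22 FPKM of Galr2, the member with the lowest hypoxia level. Because the members were picked from this contrast, their differences are described here and not tested.

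The cells were wild-type mouse embryonic fibroblasts immortalised with SV40, an oncogenic virus whose large T antigen disables p53 and the retinoblastoma protein. Both groups share that background. In normoxia 3 samples were held at 21% oxygen for 16 h, and in hypoxia another 3 were held at 0.5% oxygen for 16 h. The values are FPKM, fragments scaled to transcript length and library size, and the authors combined the 3 samples of a group into 1 value, so no SD and no value of a single sample can be given. The words rose and fell are used for genes with a Cuffdiff q below 0.05 in the authors' deposited table. All 9 members rose by that rule, which their choice from this contrast fixes. Of all tested measurements 57.9% passed it, 28.9% higher and 29.0% lower in hypoxia. A bulk value cannot tell more cells with a transcript from more transcript per cell.

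In low oxygen the alpha subunits of the hypoxia-inducible factors escape prolyl hydroxylation and degradation, pair with ARNT, and bind a short core sequence in the hypoxia response elements of their targets. Well-known targets serve glycolysis, vessel growth and pH control. Several of the genes described here are best known from settings far from the fibroblast: Tac2 and Galr2 from neuropeptide signalling, Cbln3 from the synapse, Myh7b from muscle, Fam71f2 from testis and Aire from the thymus. Ankrd37 is itself a known target, Selenbp1 encodes an enzyme and Rgcc a cell cycle regulator. How far they are studied differs widely. Fam71f2 carried 3 Gene Ontology terms in the authors' deposited table and Tac2 carried 4, against a median of 12 over tested protein-coding measurements, whereas Aire carried 26 and Rgcc 41, so "little-known" does not describe all of them. Of the 9, only Rgcc carried a term that names hypoxia or oxygen levels, which 1.55% of tested measurements did.

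Core matches to the hypoxia response element, ACGTG or GCGTG on either strand, were looked for in RefSeq promoter windows of 300 bases, 250 before the transcription start and 50 after it (assembly GRCm38.p6). All 9 members had a window there, and 5 of them held a match (55.6%), against 43.8% of all 32851 windows and 66.4% of the 3701 windows of protein-coding genes that rose. Ankrd37, Selenbp1, Myh7b and Rgcc held theirs before the start, and Aire held 1 at base 43 of the transcript. The stretches before the start are shown for those 4, because they hold the matches, and for Tac2, because it had the largest ratio and no match in its window. Each is written on the gene's strand with the bases of every match in capitals. Bases annotated as untranslated region are left out at the end for Selenbp1, Myh7b and Rgcc. For Ankrd37 they are kept: its last 17 bases, with the match at -6, lie in the untranslated region of transcripts that GENCODE M21 starts further out.
Ankrd37, chr8:45999851-46000100, minus strand: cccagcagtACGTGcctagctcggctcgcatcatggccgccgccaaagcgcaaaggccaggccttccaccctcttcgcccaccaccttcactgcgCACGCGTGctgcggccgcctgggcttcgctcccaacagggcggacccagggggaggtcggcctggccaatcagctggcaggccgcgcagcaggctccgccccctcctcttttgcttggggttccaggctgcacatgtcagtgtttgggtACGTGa
Selenbp1, chr3:94932833-94933055, plus strand: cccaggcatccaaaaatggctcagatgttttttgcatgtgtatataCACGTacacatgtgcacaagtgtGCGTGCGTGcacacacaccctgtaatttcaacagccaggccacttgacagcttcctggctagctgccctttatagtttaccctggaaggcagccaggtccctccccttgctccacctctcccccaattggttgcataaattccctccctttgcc
Myh7b, chr2:155610993-155611211, plus strand: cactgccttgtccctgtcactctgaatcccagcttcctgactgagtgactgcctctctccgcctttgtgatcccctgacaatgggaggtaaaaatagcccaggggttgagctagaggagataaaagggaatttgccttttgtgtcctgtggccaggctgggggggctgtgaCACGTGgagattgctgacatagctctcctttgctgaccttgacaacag
Rgcc, chr14:79301646-79301885, minus strand: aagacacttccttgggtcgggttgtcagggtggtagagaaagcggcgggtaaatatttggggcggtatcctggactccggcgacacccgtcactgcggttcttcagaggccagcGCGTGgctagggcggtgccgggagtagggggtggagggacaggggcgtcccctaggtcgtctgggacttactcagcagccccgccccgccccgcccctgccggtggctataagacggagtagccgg
Tac2, chr10:127724228-127724477, plus strand: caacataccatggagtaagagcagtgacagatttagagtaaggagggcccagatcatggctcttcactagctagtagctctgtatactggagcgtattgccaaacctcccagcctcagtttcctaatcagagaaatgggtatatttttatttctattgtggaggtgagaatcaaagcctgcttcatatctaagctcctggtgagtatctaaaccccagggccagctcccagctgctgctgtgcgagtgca

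The Ankrd37 stretch held matches starting at -241, -155, -152 and -6, of which the pair at -155 and -152 overlap on opposite strands. Selenbp1 held matches at -204, -181 and -177, the last pair sharing 1 base. Counting each starting base, windows with at least 3 matches made up 8.93% of all windows, and Ankrd37 and Selenbp1 were the 2 members among them. The same share among windows of genes that rose is not given here. The bases G and C made up 69.0% of the Ankrd37 window and 53.0% of that of Selenbp1, against a median of 52.7% over all windows. In Myh7b the matches at -79 and -78 are the strands of 1 palindrome, CACGTG, an E-box that 7.15% of all windows hold. Rgcc held 1 match at -136. The windows of Tac2, Fam71f2, Galr2 and Cbln3 did not hold these letters, and distant enhancers were not examined. A match is a run of letters and says nothing of binding. For Ankrd37 the RefSeq start (chr8, 45999850) lies 5857 bases inside the outermost start that GENCODE M21 annotates, and for Fam71f2 (chr6, 29281141) it lies 1548 bases inside. For Tac2 the window lies at the outermost start (chr10, 127724478). GENCODE M21 also annotates Tac2 transcripts that start further in, at 127725395 and 127725404, and the bases before those starts were not examined.

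**Figure D1:**
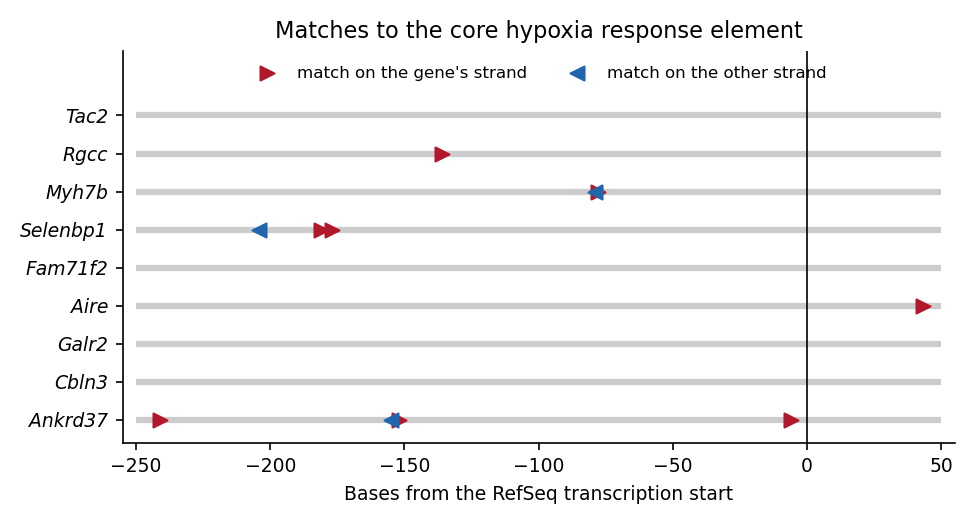
Positions of matches to ACGTG or GCGTG in the promoter windows of the 9 members, in bases from the RefSeq transcription start (vertical line), with arrowheads for the strand of each match. Ankrd37 has 4 starting positions and Selenbp1 has 3, while 4 members have none.

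Most members were barely present in air. In normoxia 7 of the 9 stood below 1 FPKM, where 17.3% of tested measurements lay, and Myh7b, Galr2 and Cbln3 stood below 0.269 FPKM, the lowest level that the higher group of any tested measurement had. Those 3 could therefore enter the authors' test only through hypoxia. The exceptions were Selenbp1 at 3.69 FPKM and Ankrd37 at 12.7 FPKM, the latter above the tested median of 10.5 FPKM, so "switched on" does not describe Ankrd37. In hypoxia 5 members exceeded the median of 10.3 FPKM. Among all tested measurements under 1 FPKM in normoxia, 518 rose (20.5%), and only 21 of them reached 5 FPKM, 5 of which are the members Tac2, Rgcc, Myh7b, Fam71f2 and Aire.

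**Figure D2:**
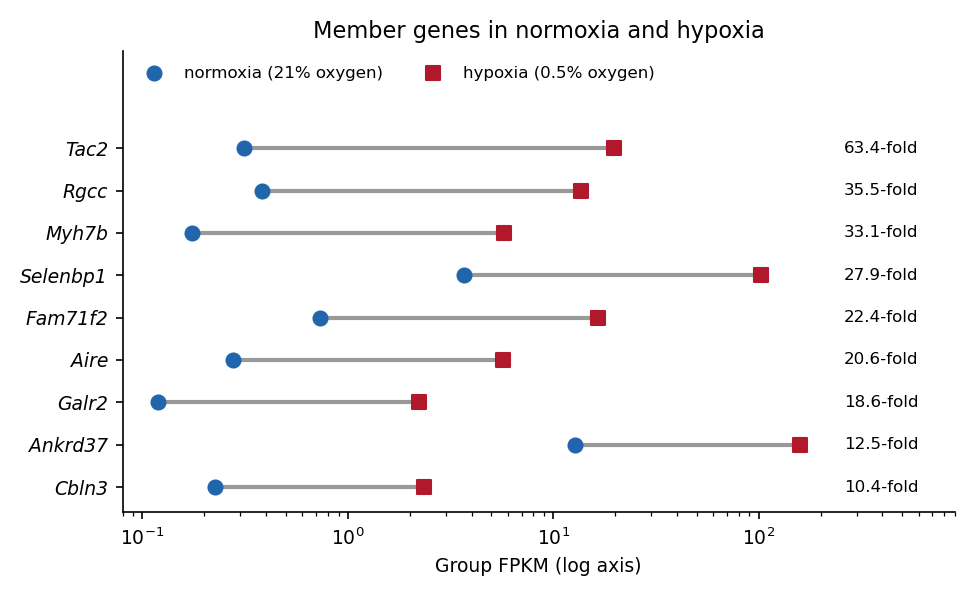
Group FPKM of the 9 members on a log axis, normoxia as circles and hypoxia as squares, joined by a line and ordered by ratio, which is printed at the right. Selenbp1 and Ankrd37 start at 3.69 and 12.7 FPKM and end above 100 FPKM, and the other 7 start below 1 FPKM.

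Of the genes for secreted peptides and their receptors, Tac2 (ENSMUSG00000025400, chr10:127724478-127731768, plus strand) encodes the precursor of neurokinin B, a tachykinin best known from the hypothalamic neurons that pace reproductive hormone release. It went from 0.311 FPKM in air to 19.7 FPKM in low oxygen, a ratio of 63.4 and rank 5 among the 4212 risers with a normoxia value above 0. Its level moved from percentile 5.24 of tested measurements to percentile 64.8. The receptor that neurokinin B prefers, Tacr3, was listed at 0 in both groups, as were Tacr1 and the sister precursor Tac1. Tacr2 and Tac4 did not exceed 0.178 FPKM and were not tested. Of 6 markers of hypothalamic neurokinin B neurons found in the table none reached 1 FPKM and Pdyn, Tacr3 and Slc17a6 were listed at 0 in both groups. Their summed level was 0.191 FPKM in normoxia and 0.103 FPKM in hypoxia.

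Galr2 (ENSMUSG00000020793, chr11:116280939-116283938, plus strand) encodes a G protein-coupled receptor for the neuropeptide galanin. It rose from 0.119 to 2.22 FPKM (18.6-fold), the lowest hypoxia level of the 9, at percentile 26.1 of tested measurements. Its ligand genes Gal and Galp and the receptor gene Galr1 were listed at 0 in both groups.

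Cbln3 (ENSMUSG00000040380, chr14:55878913-55884392, minus strand) encodes a cerebellin of cerebellar granule cells, from a family of complement C1q relatives. Secreted members of that family bridge neurexins and delta glutamate receptors at synapses. Cbln3 went from 0.226 to 2.36 FPKM, a ratio of 10.4 and the smallest of the 9. Cbln1, whose product assembles with that of Cbln3, also rose, from 0.0819 to 0.568 FPKM (6.94-fold). Like Cbln3, it stood below 0.269 FPKM in normoxia and could enter the authors' test only through hypoxia. Cbln2, Cbln4 and the partner genes Nrxn2 and Grid1 were listed at 0 in both groups. Of 6 granule cell markers found, Gabra6 and Calb2 were listed at 0. Grin2c fell from 2.36 to 0.921 FPKM and Zic2 rose from 1.36 to 3.61 FPKM, and the summed level was 3.94 FPKM in normoxia and 4.63 FPKM in hypoxia. Their part in the Cbln3 value was not tested.

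Among the genes for proteins of the nucleus and the cell cycle, Rgcc (ENSMUSG00000022018, chr14:79288756-79301645, minus strand) encodes a regulator of the cell cycle that responds to complement and binds the kinase CDK1. It rose from 0.383 to 13.6 FPKM (35.5-fold). Of 10 other tested genes for complement factors and CDK1 partners 2 rose, 4 fell and 4 were not called. The shares over all tested measurements were 28.9% and 29.0% for rises and falls. The central complement gene C3 rose from 19.3 to 182 FPKM (9.47-fold) and Cdk1 from 352 to 433 FPKM, and the kinase gene Akt1 fell 1.87-fold to 66.1 FPKM. The complement genes C1ra and Cd59a fell by 1.59-fold and 1.39-fold. The complement receptor gene C5ar1 was listed at 0, and the mitotic genes Ccnb1, Ccnb2 and Plk1 were not called.

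Aire (ENSMUSG00000000731, chr10:78030022-78043610, minus strand) encodes the autoimmune regulator, which lets medullary epithelial cells of the thymus display proteins of other tissues to developing T cells. It rose from 0.277 to 5.70 FPKM (20.6-fold). Of 9 markers listed for thymic epithelium, not all of them medullary, Ccl21a and Fezf2 were listed at 0 in both groups. Foxn1, Psmb11 and Krt5 did not exceed 0.0256 FPKM. Only 3 of the 9 were tested, and none of these rose. Epcam, an epithelial adhesion gene, stood at 5.97 and 5.22 FPKM and was not called. Tnfrsf11a, at 1.60 and 1.26 FPKM, was not called either, and Cd80 fell from 0.324 to 0.155 FPKM. The markers summed to 8.09 FPKM in normoxia and 6.82 FPKM in hypoxia. Of 4 related chromatin reader genes that were tested, Dpf1 rose from 5.71 to 24.6 FPKM (4.30-fold) and Dpf2 from 71.0 to 113 FPKM, and Phf10 and Deaf1 were not called.

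Ankrd37 (ENSMUSG00000050914, chr8:45996902-46005707, minus strand) encodes a small ankyrin repeat protein. Its rise from 12.7 to 159 FPKM added 147 FPKM, the largest gain of the 9, although its ratio of 12.5 was among the smaller ones. Of 21 other tested genes named for ankyrin repeat domains 9 rose, 7 fell and 5 were not called. Over all tested measurements 28.9% rose and 29.0% fell. Ankrd49 fell 9.21-fold, from 7.22 to 0.784 FPKM. Ankrd35 rose 2.55-fold from 0.366 FPKM, Ankrd10 2.03-fold from 23.3 FPKM and Ankrd50 1.76-fold from 15.5 FPKM.

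Of the genes for a motor protein, an enzyme and a testis protein, Myh7b (ENSMUSG00000074652, chr2:155611212-155634307, plus strand) encodes a myosin heavy chain of striated muscle and carries the microRNA gene Mir499 in an intron. It went from 0.175 FPKM in air to 5.77 FPKM in low oxygen (33.1-fold). Its call was the weakest of the 9, with a q of 0.0150 in the authors' deposited table, where the other 8 share the smallest q of that table, 0.000139, with 5148 tested measurements in all. At q below 0.01, which 24.5% of tested measurements passed with a higher hypoxia value, Myh7b was no longer called. Mir499 was listed at 0 in both groups, although poly-A selected libraries are poorly suited to microRNAs. The 3 other tested class II myosin genes, Myh14, Myh10 and Myh9, fell by 1.64-fold, 1.29-fold and 1.18-fold. Of 9 striated muscle markers found, Actn2 and Myod1 were listed at 0 and all but Tnnt2 stayed at or below 0.0681 FPKM. Tnnt2, a troponin gene, rose from 2.31 to 4.60 FPKM, and the list summed to 2.40 FPKM in normoxia and 4.67 FPKM in hypoxia. Its part in the Myh7b value was not tested.

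Selenbp1 (ENSMUSG00000068874, chr3:94933056-94944758, plus strand) encodes methanethiol oxidase, a selenium-binding enzyme that releases hydrogen sulfide. It rose from 3.69 to 103 FPKM (27.9-fold) and reached percentile 92.9 of tested measurements. Its transcripts share 46.3% of their stretches of 50 bases with those of the paralog Selenbp2, so reads from these stretches could be assigned to either. Selenbp2 itself rose from 0.251 to 0.693 FPKM, far below Selenbp1 in both groups. With a normoxia value below 0.269 FPKM, Selenbp2 could be tested only through hypoxia. Of 7 further tested genes of sulfide and sulfur metabolism 3 rose, 3 fell and 1 was not called, against 28.9% rising and 29.0% falling over all tested measurements. Sqor, which encodes the mitochondrial sulfide oxidase, rose from 14.7 to 32.3 FPKM, whereas the rhodanese gene Tst fell from 28.6 to 11.8 FPKM and the sulfite oxidase gene Suox from 8.94 to 4.48 FPKM.

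Fam71f2 (ENSMUSG00000079652, chr6:29279593-29290680, plus strand) belongs to a family of genes expressed mainly in testis. It rose from 0.735 to 16.5 FPKM (22.4-fold). Its neighbour and relative Fam71f1 rose from 0.953 to 1.42 FPKM and Fam71e1 fell from 2.03 to 1.07 FPKM. Fam71b and Fam71e2 were listed at 0. None of 8 markers of spermatogenic cells reached 1 FPKM, and Prm1, Prm2, Tnp1, Dazl and Acrv1 were listed at 0 in both groups. These markers summed to 0.184 FPKM in normoxia and 0.349 FPKM in hypoxia.

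**Figure D3:**
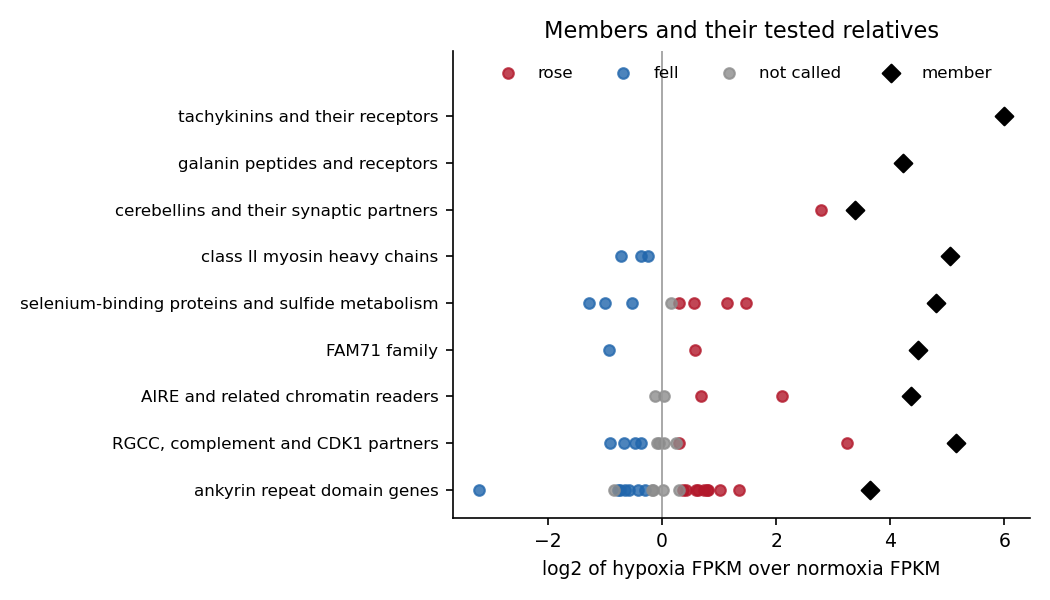
Log2 of hypoxia over normoxia FPKM for the tested genes of 9 lists of relatives and partners, coloured by the authors' call, with members as diamonds. The members lie to the right of all their relatives, of which 19 rose, 18 fell and 12 were not called.

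Over the 9 lists together, 49 tested genes other than the members had 19 rises (38.8%) and 18 falls (36.7%), against 28.9% and 29.0% of all tested measurements. Their median log2 fold change of FPKM + 1 was 0.012, or -0.054 among the 45 with a mean of at least 1 FPKM, and that of all tested measurements was -0.0094. Among the rises, Cbln1 and Selenbp2 could be tested only through hypoxia. The lists were written with results of these data known, and no test was made of them.

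The fibroblast label was checked against 10 marker genes found in the table. Col1a1 (463 and 451 FPKM) and Vim (883 and 2249 FPKM) were abundant, 8 of the 10 reached 1 FPKM, and Lum and Fap stayed at or below 0.0688 FPKM. Of 8 tested markers 1 rose, 5 fell and 2 were not called, where 28.9% of all tested measurements rose and 29.0% fell. No test was made of these markers. The highest endothelial marker was Kdr at 0.0906 FPKM in hypoxia, and among markers of blood cells Adgre1 and Cd3e were listed at 0 and Cd68 rose from 1.32 to 2.27 FPKM.

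**Figure D4:**
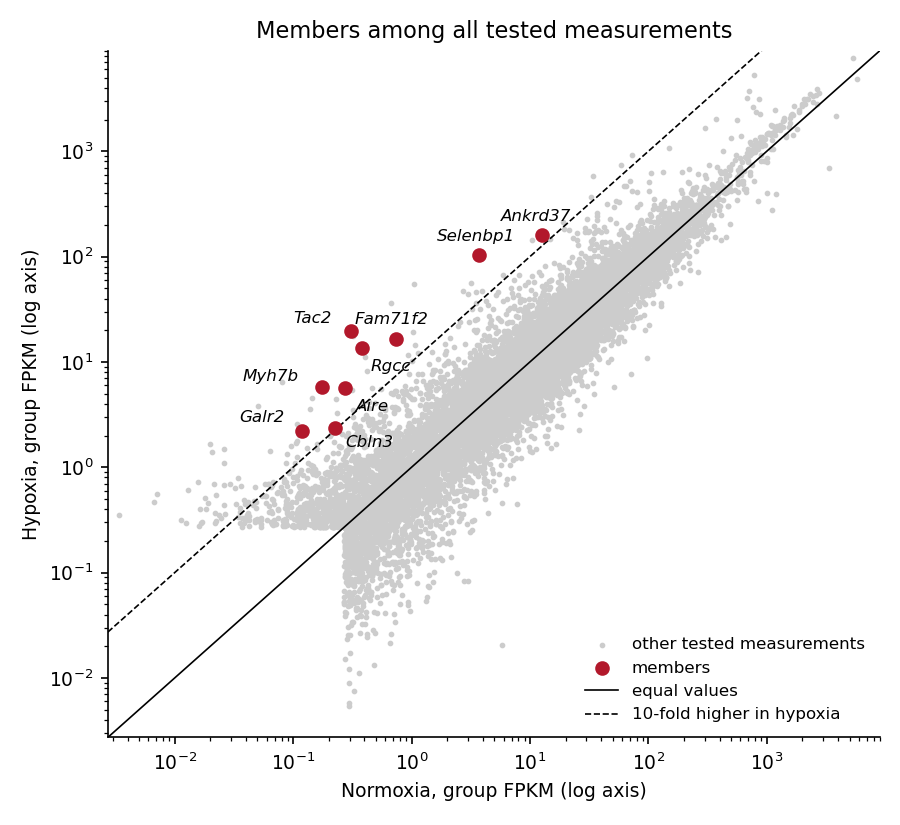
Group FPKM in hypoxia against normoxia on log axes for tested measurements above 0 in both groups (grey), with the members in red, the line of equal values and the dashed line of a 10-fold higher hypoxia value. All 9 members lie above the dashed line, Cbln3 at 10.4-fold closest to it.

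Genes around the members were then examined, since overlapping or neighbouring transcription can contribute to a value. The coordinates printed above with each member are those of its GENCODE M21 gene body. In the authors' deposited table Myh7b shares its locus (chr2:155611212-155692384) with Trpc4ap, Mir499 and Gm22334. Aire shares its locus (chr10:78030022-78063622) with Dnmt3l, and Ankrd37 (chr8:45975528-46029477) with Lrp2bp and Ufsp2. What this sharing adds to a value was not tested. Within 20 kb of the 9 gene bodies GENCODE M21 places 24 genes of the table. Of the 14 that were tested 7 rose (50%), 4 fell and 3 were not called, and of the tested neighbours of all tested genes 27.6% rose. Of the 7 raised genes, 3 overlap the member they lie near. A raised gene lay within 20 kb of 6 of the 9 members (66.7%). Among all 15746 tested annotated genes 36.1% had a raised gene that near, among the 4580 raised ones 41.9%, and among the 26 other protein-coding genes that rose at least as much as Cbln3 and reached at least the level of Galr2 46.2%. Members had a median of 2 tested genes within 20 kb and all tested genes a median of 1. No test was made on 9 genes.

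Fam71f2 has the closest raised gene on its own strand. Hilpda, which encodes an inhibitor of triglyceride breakdown, ends 4.15 kb before Fam71f2 begins, and rose from 14.6 to 148 FPKM (10.1-fold). The Fam71f2 level was 5.03% of the Hilpda level in normoxia and 11.2% in hypoxia, the former resting on a Fam71f2 value of 0.735 FPKM. Whether transcription continuing past Hilpda adds to the Fam71f2 value was not tested. The promoter window of Hilpda at its inner RefSeq start, 138 bases inside the outermost start, held matches to the core element at -111, -43 and -8. Of the 250 bases before that inner start, 121 are annotated as untranslated region. The window at the outermost start held no match before the start and 1 at base 28 of the transcript.

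Pfkl is the other raised gene on a member's strand. It encodes the liver form of phosphofructokinase, lies 19.9 kb beyond the end of Aire, and rose from 80.8 to 297 FPKM (3.68-fold). Aire also overlaps the start of Dnmt3l on the opposite strand by 1664 bases, and Dnmt3l was listed at 0.0239 and 0.0208 FPKM and not tested.

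The remaining raised neighbours lie on the opposite strand. Khnyn starts 555 bases from the start of Cbln3, in the other direction, and rose from 11.0 to 43.7 FPKM (3.96-fold), while on the far sides Nynrin fell from 7.71 to 4.76 FPKM and Sdr39u1 from 52.3 to 23.4 FPKM. The Cbln3 level was 2.05% of that of Khnyn in normoxia and 5.40% in hypoxia. Srp68, a signal recognition particle gene 6.72 kb from Galr2, rose 1.64-fold to 87.0 FPKM, and Exoc7, 4.06 kb beyond the other end, fell from 28.4 to 20.3 FPKM.

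Myh7b and Ankrd37 overlap raised genes. The last 37 bases of Myh7b overlap those of Trpc4ap, which rose from 72.1 to 85.9 FPKM (1.19-fold, q = 0.0173 in the authors' deposited table). Ankrd37 overlaps Ufsp2 by 57 bases at its end and Lrp2bp by 6405 bases at its start. The outer part of the Lrp2bp overlap rests on the single Ankrd37 transcript that starts at 46005707. The other annotated Ankrd37 transcripts start no further out than 45999867. Ufsp2, a protease gene, rose from 47.1 to 85.7 FPKM, and Lrp2bp went from 0.0475 to 0.650 FPKM (13.7-fold, q = 0.0465 in the authors' deposited table). Lrp2bp stood below 0.269 FPKM in normoxia, so it could be tested only through hypoxia. Stretches shared with Lrp2bp or Ufsp2 on either strand made up 17.0% of the 50-base stretches of Ankrd37. The libraries were stranded per the labels' protocols, but the strand setting of the counting was not given in the sources used here, so reads of Ankrd37 and of these partners cannot be told apart in the overlaps.

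Rgcc had no gene of the table within 20 kb, and Tac2 and Selenbp1 had none that rose there. Near Tac2, Myo1a was not called (0.278 and 0.225 FPKM) and Zbtb39 fell from 2.86 to 1.93 FPKM. Rfx5, 9.32 kb past Selenbp1, was not called either (8.86 and 7.60 FPKM). Just outside the limit lay further raised genes, picked out after their values were seen. They were 1700029J07Rik at 21.7 kb from Ankrd37 (3.94-fold), Nemp1 at 23.4 kb from Tac2 (2.26-fold) and Naa16 at 23.6 kb from Rgcc (4.20-fold), against Pfkl at 19.9 kb just inside.

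**Figure D5:**
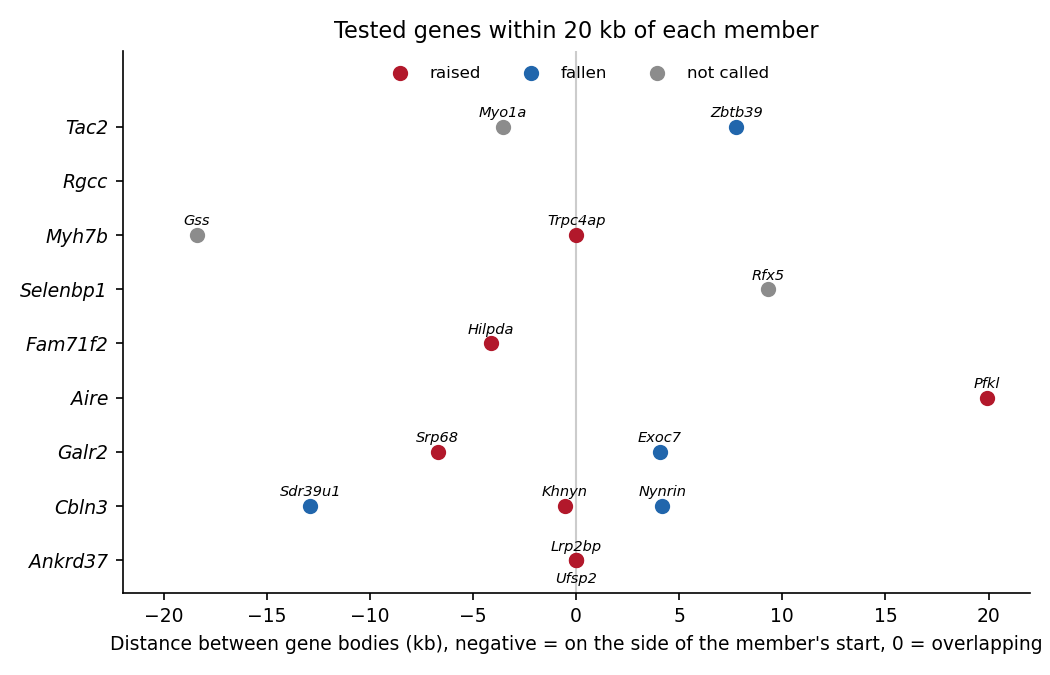
Tested genes within 20 kb of each member, by the distance between gene bodies in kb along the member's strand (0 where they overlap), coloured by the authors' call. Raised genes sit near 6 members, Ankrd37 has 2 overlapping it, and Rgcc has no gene in the window.

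The genes closest to the members in their pair of values were sought over the 2 groups, as the distance in log2(FPKM + 0.1) among tested protein-coding genes with a single name. Galr2 was closest to Gpr35, another receptor gene (0.111 and 2.01 FPKM, distance 0.145), Ankrd37 to Tbl2 (13.3 and 145 FPKM, distance 0.152) and Tac2 to the clock repressor gene Bhlhe41 (0.318 and 17.6 FPKM, distance 0.163). Fam71f2 was closest to Rnf208, Cbln3 to the histone gene Hist2h3c2, and Myh7b and Aire both to Acap1 (0.228 and 4.41 FPKM). Selenbp1 had the most distant match, the glycogen branching enzyme gene Gbe1 at 3.19 and 56.4 FPKM (distance 0.889). With 2 values per gene such likeness describes level and ratio only.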

How the data were processed

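The submitters' processing notes name build GRCm38 and Cuffdiff 2.2.1, Cufflinks, StringTie 1.3.4d and HISAT2 2.1.0. Libraries were stranded and poly-A selected, per the labels' protocols. The authors deposited 1 gene table with 1 FPKM value per gene and group, combining the 3 samples of each. Per the file headers, the other columns are the log2 ratio of the groups, a test score that was left aside, the p-value and the q-value, all computed by the authors. Scaling of libraries was not given in the sources used here, and the depth is unknown, so no interval was computed.

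Rows with the same names, locus and values were merged into 1 measurement. Folds are ratios of deposited FPKM, and calls are the authors' q below 0.05. With 1 value per group no test was run, and the fits planned for single-sample values were not made. Of the identifiers, 99.6% matched GENCODE M21 (GRCm38), which gave 1-based coordinates, strands and distances between gene bodies. Promoters came from RefSeq (GRCm38.p6). Scripts used Python 3.11.15 and pandas 2.3.3, and neighbour and motif counts were tested on simulated data. The members, gene lists and settings were chosen with earlier results of these data known. Named were the 9 members, genes within 20 kb that were tested or overlap them, the nearest gene in values for each, and up to 4 called genes per list with the largest change, with listed partners and markers added after values were seen. Some genes that this rule names are not reported here. A symbol whose only row carries several gene names was not analysed. Alternatives were other windows, thresholds, filters, pseudocounts, scaling and motifs.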

Additional observations from a re-analysis of the deposited data

How the results depend on the processing

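Of the 9 members, 8 were called at q below 0.01, Myh7b being the exception. Rescaling by the median of ratios (factor 1.00) and pseudocounts of 0.1 and 1 cannot turn ratios this large and left the authors' q as it was, so they are no check on the calls. With a pseudocount of 1 the folds ran from 2.74 to 22.2, and 7 members moved by over 1.5 times (2 with a pseudocount of 0.1), as adding a constant shrinks ratios of low values. The 7 raised genes within 20 kb became 17 within 100 kb, 4 when a 2-fold rise was required and 2 on the member's strand. They were 5 within 5 kb, 5 at q below 0.01 and 6 with at least 1 FPKM. Among the family lists 19 genes rose, 16 with a mean of at least 1 FPKM and 19 after rescaling. Of the 5 promoter windows with the core motif, 2 held the longer ACGTGC or GCGTGC and 1 held CACGTG. Wider windows, stricter thresholds and longer motifs set these counts by construction. No paired analysis was possible because the table holds group values only, and for the same reason no replicate could be left out. Without depth, the precision of the low normoxia values that set the largest ratios is unknown.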
